A study of Oryctolagus cuniculus with 12 samples.

Results

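Fibroblast growth factors (FGFs) and their receptors were followed across the superficial zone and the condylar cartilage of the rabbit jaw joint, in control joints and in a surgical model of osteoarthritis (OA). The members were chosen by gene name, with earlier results of these data known. The rule named 10 genes, and 8 of them matched a row among the 14621 genes of the deposited count table, by gene symbol or, where the symbol was blank, through the Entrez identifier. They were 5 ligands (FGF1, FGF2, FGF7, FGF9 and FGF18) and 3 receptors (FGFR1, FGFR2 and FGFR4). FGFR3 and FGFRL1 were not analysed here.

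FGF ligands bind receptor tyrosine kinases at the cell surface together with heparan sulfate. The activated receptor recruits the adaptor FRS2 and signals through the MAP kinase cascade, which in turn induces its own inhibitors, the Sprouty proteins and dual-specificity phosphatases. In cartilage, FGF2 is stored in the matrix around chondrocytes, FGF18 promotes matrix formation, and FGF9 and FGF18 signal through FGFR3 in the growth plate, roles known mainly from mouse and human work. FGF7 is made by mesenchymal cells and acts on the epithelial splice form of FGFR2, while FGF1 binds all of the FGF receptors.

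Bulk RNA sequencing covered 12 libraries from temporomandibular joints of rabbits labelled wild type, in 4 groups of 3: control superficial zone, control condylar cartilage, OA superficial zone and OA condylar cartilage. The superficial zone is the fibrous covering of the joint surface, with the condylar cartilage beneath it. OA was induced by punching a hole of 2.5 mm in the articular disc, and no further agent or allele is given for any group. The labels do not give the age of the animals, the interval after surgery, whether control joints were opened, or whether the zones shared animals, and RNA came from whole tissue samples although the titles speak of cells.

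Library totals ranged from 7326255 to 16769536 counts. Within the OA superficial zone, libraries 2 and 3 differed by 2.05 times counting noise. Within the OA condylar cartilage, libraries 1 and 2 differed by 2.77 times, against 30.1 to 703 times for other pairs within groups. Each of these near-duplicate pairs was summed and counted as 1 sample, leaving n = 3 in the control groups and n = 2 in the OA groups. Leaving out OA superficial zone 1 or OA condylar cartilage 3 therefore leaves 1 sample in that group. Loss of a call there cannot be told apart from loss of samples. OA superficial zone 1 stood apart, with the cartilage collagen gene COL2A1 at 51230 CPM (counts per 1000000, scaled between libraries) against 2511 and 2581 CPM in its partners. Control condylar cartilage 3 also went against its label, with COL2A1 at 937 CPM against 42760 and 56710 CPM, and with the muscle actin gene ACTA1 at 938 CPM. Lubricin (PRG4), a defining product of the superficial zone, lay at 167 to 453 CPM in the superficial zone libraries and at 18.9 to 120 CPM in the condylar cartilage libraries. PRG4 thus followed the zone label in every library, though COL2A1 in those 2 libraries went against it. Other superficial zone markers were mixed. Of the 7 tested, 4 were lower in control condylar cartilage at an edgeR adjusted p under 0.05, against 4.27% of all genes. Another 2 of the 7 had values in the opposite direction. The collagen gene COL1A1 was at 62330 to 78770 CPM in the control superficial zone and 116900 to 274100 CPM in control condylar cartilage. The titles number biological replicates without saying which animal each came from, so a p-value here reflects variation among the libraries at hand, which may be technical.

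All 8 members passed the filter on low counts. FGF18 passed through the superficial zone, where all 5 samples reached the cutoff of 0.874 CPM, while 0 of 3 control and 1 of 2 OA condylar cartilage samples did. FGF9 passed through the condylar cartilage, with 0 of 5 superficial zone samples at the cutoff. Their zone differences are therefore described with that filter in mind: each had to be high in 1 zone to be tested.

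**Figure D1:**
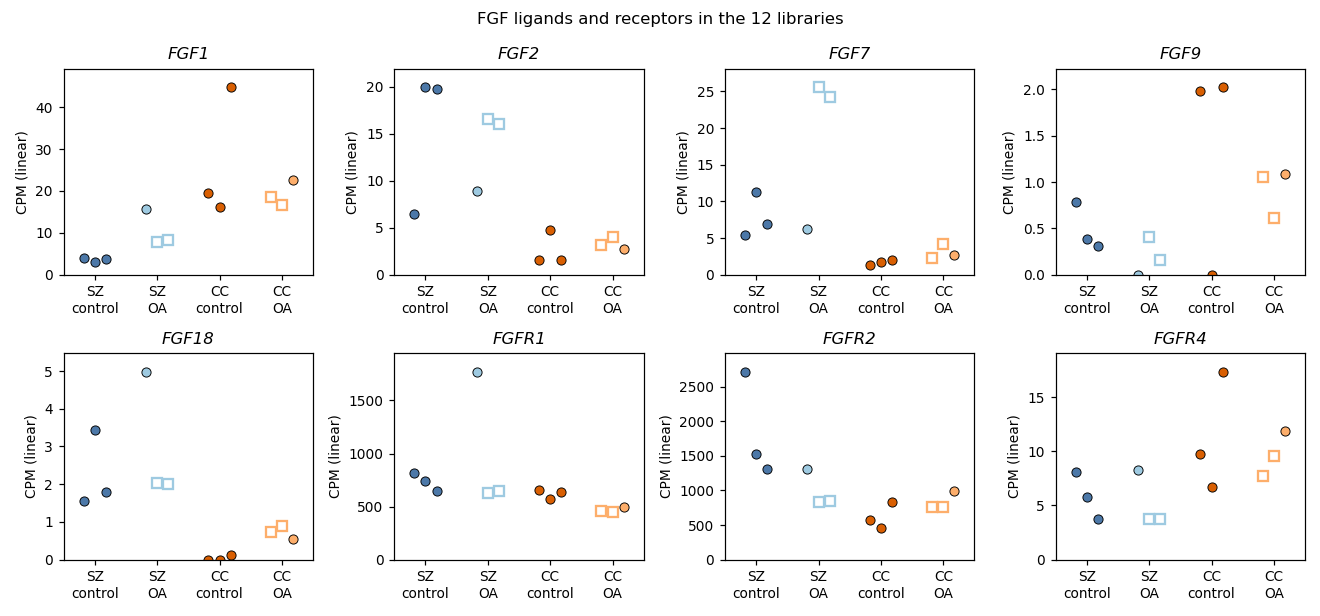
Level of each of the 8 FGF ligands and receptors in every library, in CPM, by zone (SZ, superficial zone; CC, condylar cartilage) and state; each point is 1 library and open squares are the near-duplicate libraries counted as 1 sample. FGF2, FGF7 and FGF18 lay higher in the superficial zone, FGF1 lay higher in the condylar cartilage of control joints, and FGFR1 and FGFR2 ran at 448 to 2708 CPM.

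Within a library, levels of different genes were set against each other in TPM (transcripts per 1000000, a measure per length). FGFR1 and FGFR2 were the most abundant members in every group, with mean TPM of 154 to 508, and FGFR4 lay between 3.18 and 9.06. In the control superficial zone FGFR2 (462 ± 209 TPM, SD, n = 3) and FGFR1 (437 ± 88.6 TPM) had overlapping ranges, as did FGF18 (4.74 ± 1.5 TPM), FGFR4 (4.51 ± 1.49 TPM), FGF1 (4.37 ± 4.91 TPM) and FGF9 (2.38 ± 1.40 TPM). FGF2 (44.7 ± 23.2 TPM) was the leading ligand there, followed by FGF7 (10.7 ± 4.87 TPM), and neither range touched that of its neighbours in the order. The FGF7 range, from 7.89 TPM, did overlap that of FGF1, which reached 10.04 TPM.

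The order of ligands was different in the condylar cartilage. In control joints FGF1 led at 44.1 ± 32.9 TPM, its range clear of FGFR4 (9.06 ± 4.07 TPM), whereas FGFR4, FGF2 (7.69 ± 6.16 TPM) and FGF9 (6.10 ± 5.31 TPM) overlapped. FGF7 followed at 2.22 ± 1.12 TPM, overlapping FGF9, and FGF18 was last at 0.0457 ± 0.0791 TPM. In OA condylar cartilage the ligands ran from FGF1 (24.3 ± 0.736 TPM, n = 2) through FGF2 (9.66 ± 1.75 TPM), FGF9 (4.75 ± 0.607 TPM) and FGF7 (4.10 ± 0.792 TPM) to FGF18 (1.30 ± 0.667 TPM). Among these, the ranges of FGF9 and FGF7 overlapped. In the OA superficial zone FGF2 (26.8 ± 20.8 TPM, n = 2), FGF7 (16.7 ± 17.8 TPM) and FGF1 (9.65 ± 4.49 TPM) overlapped their neighbours, FGF18 stood at 3.87 ± 0.274 TPM, and FGF9 was lowest at 0.593 ± 0.839 TPM.

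Between the zones of control joints, 5 of the 8 members differed: FGF1 was higher in the condylar cartilage, and FGF2, FGF7, FGF18 and FGFR2 were lower. Over all 14438 genes tested, 7.49% passed the same threshold, an adjusted p under 0.05 in edgeR's quasi-likelihood test with Benjamini-Hochberg adjustment over all genes. The median log2 fold change of the members was −0.91, against 0.02 for all genes. By library values, 5 of 8 members had CPM ranges that did not overlap, against 28.4% of all genes. Averaged over both states, 4 of 8 members differed between the zones (FGF1 higher, and FGF2, FGF7 and FGF18 lower, in the condylar cartilage), against 17.8% of all genes. In OA joints alone 1 of 8 differed (FGF7, lower), against 6.48% of all genes, and 6 of 8 had CPM ranges that did not overlap, against 46.8%. Of these, FGF2, FGF7 and FGFR1 overlapped in TPM, while FGFR2 and FGFR4, which overlapped in CPM, were apart in TPM. Without FGF9 and FGF18, which passed the filter through 1 zone, the counts were 4 of 6 in control, 3 of 6 over both states and 1 of 6 in OA. The comparisons in control, in OA and over both states rest on shared samples and are not independent of each other.

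FGF18, an anabolic factor for chondrocytes, had the largest fitted difference of the 8 members between the zones of control joints. Libraries 1 to 3 held 14, 45 and 17 FGF18 counts in the control superficial zone but 0, 0 and 1 in control condylar cartilage. These were 1.56, 3.44 and 1.78 CPM in the superficial zone and 0, 0 and 0.112 CPM in the cartilage. The groups did not overlap, and the cartilage side rested on 1 count from 3 libraries. The superficial zone level was 70.1 times that of the cartilage, with an exact 95% interval of 12.2 to 2804 for counting error only. The fitted log2 fold change was −5.73 ± 1.00 (SE), with an edgeR adjusted p of 0.0055, and its size depends on how the zeros are handled.

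FGF1, a broad ligand of the FGF receptors, ran the other way. In control superficial zone libraries 1 to 3 it was at 4.01, 3.06 and 3.78 CPM. In control condylar cartilage it was at 19.6, 16.3 and 44.7 CPM. All 3 cartilage libraries exceeded all 3 superficial zone libraries, and the highest value came from the library with high ACTA1. The log2 fold change was 2.89 ± 0.45 (edgeR adjusted p 0.0031), a 7.43-fold difference. Without control condylar cartilage 3 it was 2.31, with an adjusted p of 0.0038. In that library the 8 skeletal muscle markers found, of 10 listed, were all detected and summed to 2648 CPM, against 5.42 and 15.5 CPM in its partners and 18.1 to 187 CPM in the control superficial zone.

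FGF1 was also the member whose deposited feature length varied most between libraries, which bears on any value per length. In the control superficial zone the length was 885, 3908 and 4939 bases, so the 4.01, 3.06 and 3.78 CPM became 10.04, 1.43 and 1.65 TPM. In the other groups it ran from 1126 to 3105 bases. In the control superficial zone, the library with the shortest length had the highest TPM, at nearly the same CPM. With the feature lengths entered as offsets, the zone difference in control was 3.59 (edgeR adjusted p 0.0218) on the log2 scale.

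**Figure D2:**
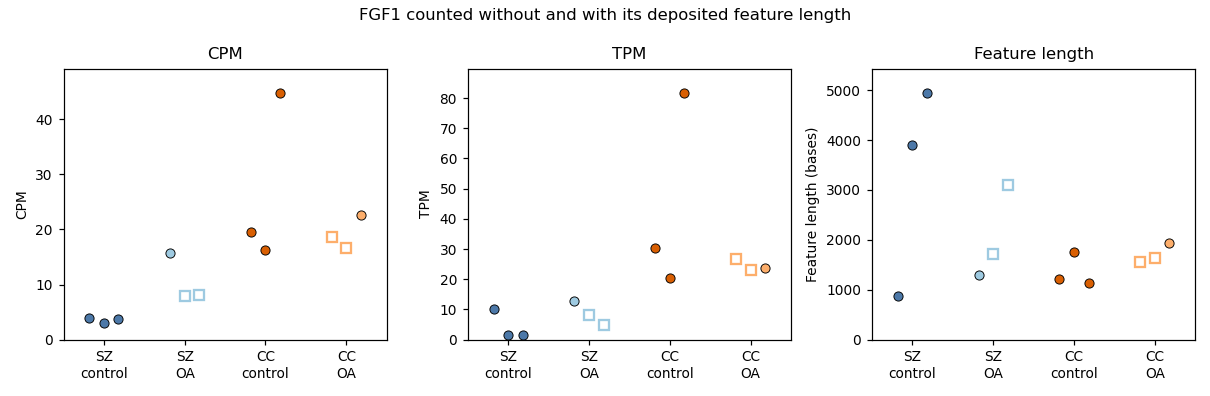
FGF1 in every library as CPM, as deposited TPM and as deposited feature length in bases, by zone (SZ, superficial zone; CC, condylar cartilage) and state; open squares are near-duplicate libraries. The control superficial zone libraries lay close together in CPM, from 3.06 to 4.01, but spread from 1.43 to 10.04 in TPM as their lengths spread from 885 to 4939 bases.

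FGF2, the matrix-bound ligand, was at 6.46, 20.0 and 19.8 CPM in the control superficial zone. Its values in control condylar cartilage were 1.52, 4.76 and 1.57 CPM. The lowest superficial zone library was above the highest cartilage library, by a small margin. The log2 fold change was −2.52 ± 0.57 (edgeR adjusted p 0.0197), or 5.72-fold lower in the cartilage. The call ended on leaving out control superficial zone 2 (adjusted p 0.092), control superficial zone 3 (0.0744) or control condylar cartilage 1 (0.0942), and the log2 values over all settings ran from −3.31 to −2.21.

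FGF7, a ligand made by mesenchymal cells, followed the same direction. It was at 5.46, 11.3 and 6.92 CPM in the control superficial zone and at 1.37, 1.76 and 2.02 CPM in control condylar cartilage. The groups were apart, with a log2 fold change of −2.19 ± 0.53 (edgeR adjusted p 0.0267). In OA it was at 6.21, 25.6 and 24.2 CPM in the superficial zone and at 2.29, 4.14 and 2.71 CPM in the condylar cartilage, a log2 difference of −2.40 ± 0.62 (adjusted p 0.0441). In TPM the OA ranges overlapped, at 4.10 to 29.6 TPM in the superficial zone and 3.37 to 5.95 TPM in the cartilage. The control call ended without control superficial zone 2 (0.134) or 3 (0.0617) or control condylar cartilage 1 (0.115) or 2 (0.0797). The OA call held in 11 of 21 alternative settings and ended without OA condylar cartilage 1 (0.0614). It also ended without control superficial zone 1 (0.0704), 2 (0.070) or 3 (0.0776) or control condylar cartilage 1 (0.0659) or 2 (0.0529), which enter through the shared estimate of spread. Without OA condylar cartilage 3 the log2 difference in OA was −2.27, with 1 OA cartilage sample left.

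FGF9, which signals to chondrocytes through FGFR3, was near the limit of detection. Control superficial zone libraries held 7, 5 and 3 counts of it, and control condylar cartilage libraries 13, 0 and 18. In OA they were 0, 7 and 3 in the superficial zone and 19, 11 and 16 in the condylar cartilage. The control groups overlapped, since 1 cartilage library had no count, and the OA groups did not. The log2 differences between zones were 1.39 ± 1.14 in control (edgeR adjusted p 0.623) and 2.28 ± 1.41 in OA (0.300), and neither passed the threshold.

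**Figure D3:**
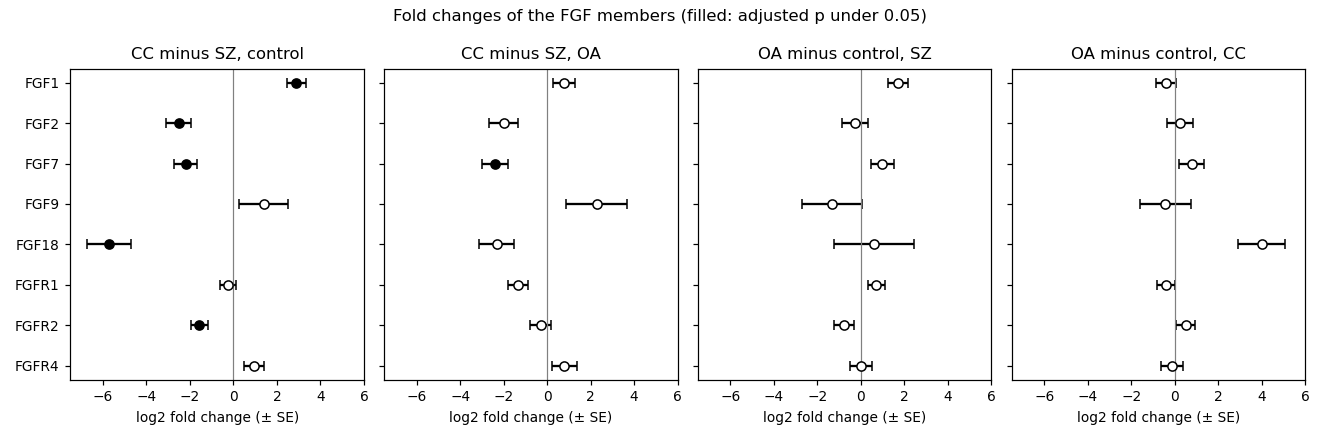
Log2 fold change (± SE) of each member for the condylar cartilage minus the superficial zone (CC minus SZ) in control and in OA, and for OA minus control in each zone; filled points have an adjusted p under 0.05. In control, FGF1 lay at 2.89 and FGF2, FGF7, FGF18 and FGFR2 at −1.58 or below, and no point of either OA comparison was filled.

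Among the receptors, FGFR2 differed between the zones of control joints. It was at 2708, 1531 and 1309 CPM in the control superficial zone and at 575, 450 and 833 CPM in control condylar cartilage, with no overlap. The log2 fold change was −1.58 ± 0.40 (edgeR adjusted p 0.0321), a level 2.99-fold lower in the cartilage. This call ended without control superficial zone 1 (0.112) or 2 (0.0643), or control condylar cartilage 1 (0.145) or 2 (0.118). In OA the CPM ranges overlapped, with 1306, 836 and 851 CPM in the superficial zone and 762, 760 and 986 CPM in the cartilage. The log2 difference was −0.30 ± 0.47 (edgeR adjusted p 0.684). In TPM the OA ranges were apart and higher in the cartilage, at 175 to 182 TPM in the superficial zone and 195 to 233 TPM in the cartilage.

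FGFR1, the other abundant receptor, was at 813, 741 and 646 CPM in the control superficial zone and at 658, 567 and 641 CPM in control condylar cartilage. These ranges overlapped, and the log2 difference, which did not pass the threshold, was −0.24 ± 0.37 (edgeR adjusted p 0.844). In OA it was at 1766, 629 and 645 CPM in the superficial zone and at 454, 448 and 495 CPM in the cartilage. The highest value of all came from OA superficial zone 1, the library with high COL2A1. The log2 difference in OA was −1.35 ± 0.46 (adjusted p 0.0941), and −0.43 without that library, with 1 OA superficial zone sample left. In TPM the OA ranges overlapped, at 302 to 706 TPM in the superficial zone and 288 to 303 TPM in the cartilage.

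FGFR4 was the scarce receptor. It was at 8.14, 5.81 and 3.78 CPM in the control superficial zone and at 9.73, 6.74 and 17.3 CPM in control condylar cartilage. In OA the values were 8.28, 3.79 and 3.77 CPM in the superficial zone and 7.75, 9.56 and 11.9 CPM in the cartilage. CPM ranges overlapped in both states, and the log2 difference over both states was 0.86 ± 0.36 (edgeR adjusted p 0.127). In TPM the ranges were apart and higher in the cartilage in both states. They were 3.08 to 6.06 TPM against 6.08 to 13.7 TPM in control, and 2.72 to 3.54 TPM against 6.99 to 9.88 TPM in OA.

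The makeup of the receptor pool was compared within each library, as the share of each receptor in the summed TPM of FGFR1, FGFR2 and FGFR4. Among control libraries, FGFR1 held 43.1%, 54.0% and 51.7% in the superficial zone and 73.2%, 71.6% and 63.8% in the condylar cartilage. In OA its share was 79.4%, 63.0% and 63.1% in the superficial zone and 60.0%, 59.6% and 54.2% in the cartilage. The zone with the higher FGFR1 share in control was thus the one with the lower share in OA, in these libraries. FGFR2 held nearly all of the rest, with mean shares of 49.9% ± 5.74 (SD, n = 3) and 28.8% ± 4.58 in the superficial zone and cartilage of control joints, and 28.3% ± 11.4 (n = 2) and 41.3% ± 3.74 in OA.

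With both states pooled, only the FGFR4 share passed the threshold between zones. The zone differences in FGFR1 and FGFR2 share had opposite signs in control and OA, so the pooled test cannot show them within a state. The FGFR4 share was 0.496% ± 0.0878 (SD, n = 5) in the superficial zone and 1.69% ± 0.350 (n = 5) in the condylar cartilage, a difference of 1.20 percentage points. All 5 cartilage samples were above all 5 superficial zone samples, and the two-sided exact permutation test gave p = 0.0079, the smallest it allows at this size, or 0.0238 adjusted over 3 receptors. Without both libraries that stood apart the difference was 1.04 points. With 4 samples a zone the exact test cannot go below p = 0.0286, or 0.0857 adjusted over 3 receptors, so no call was possible there. The FGFR1 share differed by 6.28 points (exact permutation p = 0.365, adjusted 0.365) and the FGFR2 share by −7.48 points (exact permutation p = 0.333, adjusted 0.365). Within 1 zone, control and OA samples are too few to reach 0.05 by this test.

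**Figure D4:**
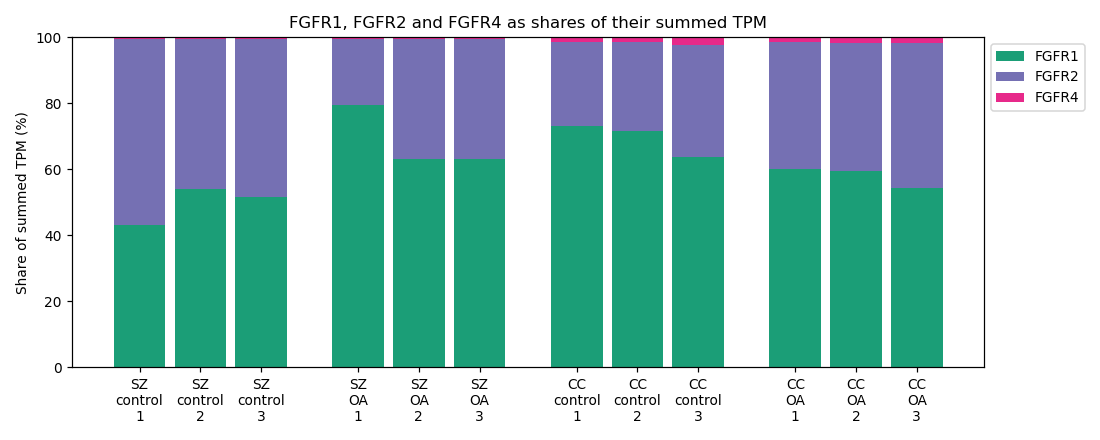
Share (%) of FGFR1, FGFR2 and FGFR4 in their summed TPM in each library, grouped by zone (SZ, superficial zone; CC, condylar cartilage) and state. FGFR1 and FGFR2 held most of the pool in all 12 libraries, with FGFR1 from 43.1% to 79.4%, and FGFR4 held at most 2.22%.

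OA against control gave fewer differences. In the superficial zone 0 of 8 members passed the threshold, against 0.0208% of all genes, with 1 member at an unadjusted p under 0.05. DESeq2 called 1 (FGF1), against 1.99% of all genes, and limma-voom 0. In the condylar cartilage 0 of 8 members passed, against 0.866% of all genes, with 1 member at an unadjusted p under 0.05. There DESeq2 called 0 and limma-voom 1 (FGF18), against 10.7% of all genes in limma-voom. The members' median log2 fold change was 0.30 in the superficial zone and 0.06 in the condylar cartilage, against 0.05 and −0.03 for all genes. Averaged over zones 0 of 8 passed, against 1.34% of all genes, with 2 at an unadjusted p under 0.05 and 0 called by DESeq2 or limma-voom. Of all 14438 genes, 1604, 1335 and 1685 were under that unadjusted p in the superficial zone, the condylar cartilage and over both zones. CPM ranges did not overlap for 2 of 8 members in the superficial zone, against 17.8% of all genes, and for 3 of 8 in the condylar cartilage, against 29.8%.

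The FGF18 counts of 0, 0 and 1 in control condylar cartilage stood against 13, 16 and 8 in OA condylar cartilage, or 0.724, 0.884 and 0.542 CPM. All OA libraries were above all control libraries. The OA level was 21.2 times the control level, with an exact 95% interval of 3.58 to 860 for counting error only. The fitted log2 fold change of 4.0 ± 1.08 had an unadjusted p of 0.00334 and an edgeR adjusted p of 0.150. Adjusted p ranged from 0.0208 to 0.415 over 21 alternatives, and 3 of them called it: limma-voom (0.0208), 12 separate libraries (0.0413) and the fit without both libraries that stood apart (0.0476). In the superficial zone the FGF18 counts were 36, 35 and 37 in OA, or 4.97, 2.04 and 1.99 CPM, overlapping the control values.

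Markers of other cells also differed between the condylar cartilage groups. The 8 neutrophil and marrow markers found, of 9 listed, summed to 574, 1884 and 1903 CPM in the OA condylar cartilage libraries in rising order, against 0.733 to 11.8 CPM in control cartilage. Up to 5 of those 8 were at 0 in a control cartilage library. The 6 erythroid markers found, of 7 listed, summed to 357 to 1219 CPM against 12.02 to 46.4 CPM. Within the OA group library 3 had the lowest marker sums and the lowest FGF18, at 0.542 CPM. Libraries 1 and 2 are the near-duplicate pair counted as 1 sample, so this compares n = 2 samples. In libraries 1 and 2 the neutrophil and marrow sums were 1903 and 1884 CPM, and FGF18 was at 0.724 and 0.884 CPM. The superficial zone gene PRG4 was at 109, 120 and 61.4 CPM in OA condylar cartilage libraries 1 to 3. Its control cartilage values were 18.9 to 40.8 CPM. Of the 7 superficial zone markers tested, 5 had positive values in this comparison and 0 were called by edgeR, against 0.866% of all genes. The part of these cells, or of superficial zone tissue, in the result was not tested. In bulk tissue fewer cells of a type and less RNA per cell cannot be told apart.

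FGF1 was at 15.7, 7.88 and 8.19 CPM in the OA superficial zone, each above the control values of 3.06 to 4.01 CPM. The log2 fold change was 1.71 ± 0.47, with an unadjusted p of 0.00387 and an edgeR adjusted p of 0.209. DESeq2 gave an adjusted p of 0.0469, at the lower end of a range of 0.0469 to 0.964 over the alternatives. Per length the ranges overlapped, at 12.8, 8.19 and 4.76 TPM in OA against 1.43 to 10.04 TPM in control. In OA condylar cartilage FGF1 was at 18.6, 16.7 and 22.6 CPM, within the control range (−0.42 ± 0.46, adjusted p 0.902).

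Skeletal muscle markers summed to 310, 1589 and 1597 CPM in the OA superficial zone, in rising order, against 18.1 to 187 CPM in control. In edgeR 0 of the 8 were called, against 0.0208% of all genes, with 2 at an unadjusted p under 0.05, where 1604 of 14438 genes were. The sums of 1589 and 1597 CPM came from the near-duplicate pair counted as 1 sample. The library with the highest FGF1 there, OA superficial zone 1 at 15.7 CPM, had the lowest of the 3 OA muscle sums, and the part of muscle cells in the result was not tested. It also had the high COL2A1, and without it the FGF1 log2 fold change was 1.16, with 1 sample left in the OA group.

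The remaining members gave smaller or less certain OA differences. FGF7 had log2 fold changes of 0.99 ± 0.53 in the superficial zone (edgeR adjusted p 0.513) and 0.78 ± 0.57 in the condylar cartilage (0.780), and all 3 OA cartilage libraries, at 2.29 to 4.14 CPM, were above the control ones, at 1.37 to 2.02 CPM. FGFR2 was at 836 to 1306 CPM in the OA superficial zone, below all control libraries at 1309 to 2708 CPM (−0.78 ± 0.44, adjusted p 0.533). The margin between the nearest FGFR2 libraries, 1306 and 1309 CPM, was slight. FGFR1 in OA condylar cartilage, at 448 to 495 CPM, was below all control libraries, at 567 to 658 CPM (−0.39 ± 0.41, adjusted p 0.888). FGFR1 in the superficial zone had a log2 fold change of 0.71 ± 0.40 (adjusted p 0.534), which became −0.20 without OA superficial zone 1. FGF2 moved by −0.28 ± 0.59 and 0.25 ± 0.61, FGF9 by −1.32 ± 1.37 and −0.43 ± 1.18, and FGFR4 by 0.01 ± 0.52 and −0.13 ± 0.51, in the superficial zone and condylar cartilage, none past the threshold.

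Whether the OA effect differed between zones was tested directly as an interaction. Of the 8 members 0 passed, against 0.0% of all genes, and DESeq2 or limma-voom called 0. Where 1265 of all 14438 genes had an unadjusted p under 0.05, 2 members did. These were FGF1, with a difference of −2.12 ± 0.67 on the log2 scale (condylar cartilage minus superficial zone, p 0.00851, edgeR adjusted p 0.448), and FGF18, with 3.42 ± 1.33 (p 0.0256, adjusted p 0.519). FGFR2 had 1.28 ± 0.61 (adjusted p 0.587) and FGFR1 −1.11 ± 0.58 (0.598), and the latter was −0.20 without OA superficial zone 1.

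Around the members, 81 names of the FGF pathway were listed, of which 60 were tested. In edgeR 0 passed the threshold for OA against control in the superficial zone, in the condylar cartilage, over both zones, or for the difference between zones, with 6, 4, 5 and 5 at an unadjusted p under 0.05. Of all 14438 genes, 1604, 1335, 1685 and 1265 were under that unadjusted p. DESeq2 called 1, 0, 1 and 0 of the 60 in these comparisons, and limma-voom called 0, 10, 0 and 0. The 10 that limma-voom called in the condylar cartilage were 16.7% of the 60, against 10.7% of all genes by that test. DESeq2 called 1.99% of all genes in the superficial zone and 3.73% over both zones. Between zones in edgeR, 4 were higher and 3 lower in the condylar cartilage in control, 1 higher and 3 lower in OA, and 7 higher and 7 lower over both states. These were 11.7%, 6.67% and 23.3% of the 60, against 7.49%, 6.48% and 17.8% of all genes. Their median log2 differences were 0.15, −0.18 and 0.09, against 0.02, 0.01 and 0.03 for all genes.

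Among the other secreted ligands 1 of 13 names was tested, FGF10, a mesenchymal ligand of the FGF7 subfamily. It was at 4.68, 5.58 and 7.24 CPM in the control superficial zone and at 0.456, 1.25 and 2.02 CPM in control cartilage. In OA it was at 6.35, 10.3 and 9.16 CPM in the superficial zone and at 1.00, 1.05 and 1.29 CPM in the cartilage. The zones did not overlap in either state, and FGF10 was lower in the condylar cartilage by a log2 difference of −2.50 over both states (edgeR adjusted p 0.0018), a call that held in all 21 alternatives. FGF7 and FGF10 thus had the same direction. Of the 3 intracellular FGF homologous factors tested, FGF11 was lower in the condylar cartilage over both states (−2.10, edgeR adjusted p 0.0125). In that comparison 17.8% of all genes were called. The adjusted p of FGF11 was 0.0505 with limma-voom. Without OA condylar cartilage 3 its log2 value was −2.06, with 1 OA cartilage sample left.

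Of the 15 coreceptors and binding proteins tested, 2 were higher and 3 lower in the condylar cartilage over both states, where 17.8% of all genes were called. SDC1, a heparan sulfate proteoglycan that binds FGFs, was at 77.6 to 129 CPM in the control superficial zone and at 14.6 to 36.1 CPM in control cartilage. Over both states its log2 difference was −2.04 (edgeR adjusted p 0.0033). SULF2, which removes sulfate groups from heparan sulfate, was also lower (−1.54, adjusted p 0.0038), and both calls held in all 21 alternatives. The glypican GPC3 was higher (1.56, adjusted p 0.00998) and its call held in 20 of 21. The glypican GPC6 was lower (−1.36, adjusted p 0.0218) and the syndecan SDC2 higher (0.84, adjusted p 0.0279). The GPC6 and SDC2 calls ended, among other leave-outs, without control condylar cartilage 1 (0.0564 and 0.0736). Their log2 values were −1.335 and 0.72 without OA condylar cartilage 3, with 1 OA cartilage sample left. The heparan sulfate carriers thus did not share 1 direction.

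Among the adaptors of the receptor, GAB1 was higher in the condylar cartilage over both states, by 0.74 on the log2 scale (edgeR adjusted p 0.0443), and FRS3 was lower (−1.02, adjusted p 0.037). These calls held in 13 and 11 of 21 alternatives, and both ended, among other leave-outs, without control condylar cartilage 1 (0.099 and 0.0837). The log2 values were 0.71 and −1.06 without OA condylar cartilage 3, with 1 OA cartilage sample left. Of the 11 downstream transcription factors and early genes tested, 1 was higher and 1 lower over both states, where 17.8% of all genes were called. EGR3 was higher (1.55, edgeR adjusted p 0.0442) and IER3 lower (−1.85, adjusted p 0.00987). Without control condylar cartilage 1 the adjusted p was 0.0589 for EGR3, and the IER3 call held in 20 of 21 alternatives. Without OA condylar cartilage 3, with 1 OA cartilage sample left, the log2 values were 1.6 for EGR3 and −1.83 for IER3.

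The feedback inhibitors are the genes that FGF signalling itself induces, though other growth factors acting through MAP kinase do so too. In control joints 3 of the 10 tested were higher in the condylar cartilage and 0 lower, where 3.22% of all genes were higher and 4.27% lower. Of the 10, 8 had positive values, with a median of 0.73 against 0.02 for all genes. The library ranges were apart for 6 of the 10, all higher in the cartilage, against 28.4% of all genes in either direction. Markers of other cells differed between the same groups. The 6 osteoblast and osteocyte markers summed to 386 to 586 CPM in the superficial zone libraries and to 1757 to 2573 CPM in the cartilage libraries, with 5 of 6 called higher. The 8 endothelial markers summed to 312 to 316 CPM and to 360 to 609 CPM, with 4 of 8 called higher, and the part of these cells in the result was not tested. DUSP5, a nuclear phosphatase of ERK, was at 2.56, 2.06 and 3.15 CPM in the superficial zone and at 21.4, 16.8 and 16.9 CPM in the cartilage (2.82 ± 0.51, edgeR adjusted p 0.0062). DUSP6, a cytoplasmic phosphatase of ERK, was at 22.0, 16.4 and 15.4 CPM and at 49.7, 34.8 and 56.9 CPM (1.40 ± 0.36, adjusted p 0.0378). DUSP4 was at 1.78, 1.76 and 1.258 CPM and at 6.84, 5.94 and 7.08 CPM (2.04 ± 0.47, adjusted p 0.0206). These 3 genes were among the 6 whose ranges were apart. The Sprouty gene SPRY4, named after its values were seen, had 28.2 to 31.9 CPM against 40.3 to 58.8 CPM, also apart, with an adjusted p of 0.194. The call on DUSP5 held in 21 of 21 alternatives. That on DUSP4 ended without control superficial zone 1 (0.0678), 2 (0.084) or 3 (0.0912) or control condylar cartilage 1 (0.0734). That on DUSP6 ended without control superficial zone 1 (0.0741), 2 (0.155) or 3 (0.136), or control condylar cartilage 1 (0.125) or 3 (0.0894). The DUSP6 log2 value was 1.37 without OA condylar cartilage 3, with 1 OA cartilage sample left.

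For OA against control, the feedback inhibitors had medians of opposite sign in the zones. In the superficial zone 9 of 10 had positive values with a median log2 fold change of 0.70, and in the condylar cartilage 2 of 10 were positive with a median of −0.59. The medians of all genes were 0.05 and −0.03, and in edgeR 0 of 10 passed the threshold in either zone, with 2 in each at an unadjusted p under 0.05. That unadjusted p was met by 1604 of all 14438 genes in the superficial zone and 1335 in the condylar cartilage. DESeq2 called 0 in either zone, and limma-voom called 0 in the superficial zone and 5 in the condylar cartilage, where it called 10.7% of all genes. The superficial zone median rested on 1 library and was 0.22, with 6 of 10 positive, without OA superficial zone 1. DUSP6 was at 51.2 CPM in that library and 20.5 and 21.1 CPM in its partners, against 15.4 to 22.0 CPM in control. The genes did not share this pattern. IL17RD, a membrane inhibitor of FGF signalling named after its values were seen, was at 5.24 CPM in that library and 23.1 and 23.4 CPM in its partners, against 8.56 to 10.8 CPM in control. SPRY2, also named after its values were seen, was at 10.5, 22.5 and 24.2 CPM, against 4.36 to 8.70 CPM in control, and was the 1 gene of the 10 with ranges apart there, against 17.8% of all genes.

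In the condylar cartilage the OA libraries lay below the control libraries for 6 of the 10 (DUSP4, DUSP5, DUSP6, IL17RD, SPRED2 and SPRY4) and above them for 0, against 29.8% of all genes with ranges apart in either direction. The neutrophil and marrow markers, with 7 of 8 called higher in OA, and the erythroid markers, with 4 of 6, moved between the same groups at the sums given beside FGF18, and their part in the result was not tested. In that comparison edgeR called 0.866% of all genes in either direction. DUSP6 was at 25.6, 23.7 and 29.6 CPM in OA against 34.8 to 56.9 CPM in control. DUSP5 was at 8.47, 7.74 and 8.47 CPM against 16.8 to 21.4 CPM, and SPRY4 at 20.0, 20.9 and 23.9 CPM against 40.3 to 58.8 CPM. The ranges did not overlap, but the edgeR adjusted p was 0.612 for DUSP6, 0.554 for DUSP5 and 0.228 for SPRY4. The difference of the OA effect between zones had a median of −1.52 over the 10, against −0.02 for all genes, and −0.91 without OA superficial zone 1. Scaling by library totals alone gave −0.80, against 0.50 for all genes. None of the 10 passed in edgeR, DESeq2 or limma-voom, with 3 at an unadjusted p under 0.05 in edgeR, where 1265 of all 14438 genes were.

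**Figure D5:**
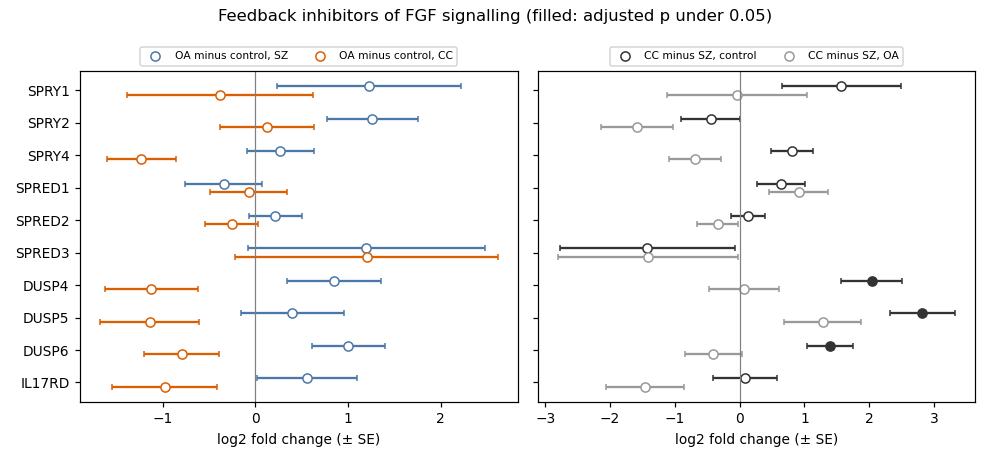
Log2 fold change (± SE) of the 10 feedback inhibitors tested, for OA minus control in each zone (left) and for the condylar cartilage minus the superficial zone in each state (right); SZ is the superficial zone, CC the condylar cartilage, and filled points have an adjusted p under 0.05. DUSP4, DUSP5 and DUSP6 were filled for the zones of control joints, at 2.04, 2.82 and 1.40, and no OA point was filled.

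Genes with the profile most like each member were ranked by Pearson's r of log2 CPM over the 10 samples, as a description. The samples share their groups, so a gene that differs between zones resembles many others. FGF18 was most like NFASC (r = 0.996), SOAT2 (0.975) and GPR37 (0.968). FGF1 was most like SALL1 (0.981), SLC22A23 (0.973) and SEMA5A (0.969). FGF2 was most like FOXP2 (0.964), C1QTNF2 (0.951) and RGS7 (0.951), and FGF7 was most like CREB5 (0.960), the fibrillar-associated collagen gene COL14A1 (0.959) and ANO4 (0.959). The r values for FGF9 were the lowest of the ligands, with PKNOX2 (0.888), ITIH2 (0.882) and CCDC126 (0.876). Among receptors, FGFR1 was most like EVI5L (0.991), TFE3 (0.988) and ATP13A2 (0.988). FGFR2 was most like the matrix glycoprotein gene TNC (0.922), CCDC136 (0.914) and SV2A (0.907). FGFR4 was most like LRP4 (0.941), the osteocyte gene SOST (0.935) and FHOD3 (0.921).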

How the data were processed

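RNA was sequenced from 12 libraries of rabbit temporomandibular joint tissue (RNeasy Micro extraction, ribosomal RNA depletion, directional NEBNext Ultra II libraries, per the labels' protocols). Tools listed, without roles, in the submitters' processing notes are Salmon 1.1.0, StringTie 2.1.0, STAR 2.7.9a, DESeq2 1.26.0, Trim Galore 0.6.7 and MultiQC 1.13, with the OryCun2.0 genome. The deposited table gives whole-number estimated counts and TPM per gene; per the file headers the counts are called both normalised and raw, and median-of-ratios factors of 0.556 to 1.575 showed that they were not scaled to 1 depth, so they were used as raw. The deposited log2 TPM values were not used. Symbols for 1075 genes came from RefSeq names (assembly mOryCun1.1), so no coordinates are given. The members and gene lists were chosen with earlier results of these data known.

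Groups and replicate numbers came from the sample titles. Counts were tested in R 4.3.3 with edgeR 4.0.16 (quasi-likelihood F test, TMM, filterByExpr with a minimum count of 10, 14438 genes, threshold 0.05 on Benjamini-Hochberg adjusted p), in 1 model of 4 groups and 7 comparisons. The SE is the log2 fold change divided by the t quantile that its p corresponds to. Near-duplicate pairs were summed. DESeq2 1.42.0 and limma 3.58.1 (voom with sample weights) were alternatives. The scripts were tested on simulated data. Receptor shares used the deposited TPM, over the 3 receptors found rather than the 4 planned. All members are named, and pathway genes are named where they passed the threshold in a comparison (SPRY4, IL17RD, SPRY2 and SPRED2 excepted), and some pathway results are not reported here. Counting intervals cover counting error only. No sequences are shown.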

Additional observations from a re-analysis of the deposited data

How the results depend on the processing

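Of 21 alternatives, the members called between zones over both states were called in all 21, as were FGF1 and FGF18 between zones in control, though FGF18 had to be high in the superficial zone to be tested; the cause of the changes listed here was not tested. Counts of all genes past the threshold moved as follows. OA in the superficial zone (3): 0 with library totals, 0 with limma-voom, 288 with DESeq2, 163 with 12 separate libraries, 132 with the replicate block and 285 without both libraries that stood apart, with leave-outs from 0 to 51. OA in the condylar cartilage (125): 351 with DESeq2, 1540 with limma-voom, 441 with 12 libraries, 324 with the replicate block, 667 without both, leave-outs 0 to 224. Difference between zones (0): 116, 98, 92 and 97 with DESeq2, 12 libraries, the block and without both. Zones in control (1081): 3427 with limma-voom, 2452 without both, leave-outs 486 to 1816. Zones in OA (935): 2102, 134, 2879, 2445 and 1751 with DESeq2, limma-voom, 12 libraries, the block and without both, leave-outs 104 to 1402. OA over both zones (194): 539, 79, 624, 472 and 1009 in that order, leave-outs 40 to 476. Zones over both states (2565): leave-outs 1327 to 2846.

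Members called in the OA superficial zone (0) became 1 with DESeq2. In OA condylar cartilage (0) they became 1 with limma-voom, 12 libraries or without both, and over both zones (0) 1 with 12 libraries or without both. Between zones in OA (1) they became 0 with library totals, limma-voom or feature length offsets, 3 with DESeq2 or without both, 4 with 12 libraries and 2 with the replicate block, leave-outs 0 to 1; in control (5) leave-outs gave 2 to 5. Of 18 same-number pairs, 7 had a correlation over 0.1 (−0.315 to 0.334), and 5 of 12 libraries correlated best with their own number. With near-duplicate pairs within the OA groups, these values cannot show whether samples shared animals, which was not tested.

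Small OA log2 values changed sign. In the superficial zone without both libraries, FGF2 became 0.0413, FGF18 −0.21 and FGFR1 −0.24. FGFR4 became −0.38 with library totals, −0.0285 with limma-voom, −0.19 with 12 libraries, −0.22 with the replicate block and −0.67 without both. In the condylar cartilage without both, FGF1 became 0.16, FGF2 −0.058, FGF9 0.13 and FGFR4 0.32, FGF9 became 0.13 with limma-voom, and FGFR4 0.13 with library totals and 0.0226 with limma-voom. Leave-outs spanned −0.68 to 0.0799 (FGF2), −0.17 to 0.99 (FGF18), −0.20 to 0.73 (FGFR1) and −0.64 to 0.24 (FGFR4) in the superficial zone, and −0.68 to 0.16 (FGF1), −0.0262 to 1.05 (FGF2), −1.06 to 0.0941 (FGF9) and −0.40 to 0.32 (FGFR4) in the cartilage. The FGFR4 share difference was 1.04 points without both, where 4 samples a zone cannot pass the adjusted threshold. Library totals moved the all-gene median in the superficial zone from 0.05 to −0.24 and in the cartilage from −0.03 to 0.23. Feature length offsets were added after the data were seen. FGF9 and FGF18, at 0 to 45 counts a library, are limited by depth.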
